A study of Mus musculus with 8 samples.

Results

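The mouse Ifi200 cluster is a row of related genes on chromosome 1 that encode interferon-inducible nuclear and cytosolic proteins, many of which bind DNA. Described here are 10 of its genes, namely Ifi203, Ifi204, Ifi207, Ifi208, Ifi209, Ifi211, Ifi213, Ifi214, Mndal and the neighbouring Aim2, among 54532 gene identifiers in the count files. They were chosen by name and matched to the files through their Ensembl identifiers, and each of the 10 names matched 1 identifier. Poly(A) RNA was sequenced from primary islets, the endocrine tissue of the pancreas, which hold a mixture of cell types. The islets came from Sting-/- or wild-type (WT) mice aged 25 to 30 weeks, were picked by hand after collagenase P digestion, and recovered overnight in culture. The 4 groups were Sting-/- islets with DMXAA, Sting-/- islets with DMSO, WT islets with DMXAA and WT islets with DMSO, with 2 libraries in each. DMXAA was given at 50 µg/mL for 3 h, and DMSO, the solvent, for the same time. The labels describe neither the deleted part of Sting nor how many mice gave a library, so p-values reflect library-to-library spread and this spread may be technical.

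These proteins form the PYHIN family, which pairs a pyrin domain, used for binding other proteins, with HIN domains that grip double-stranded DNA; some members hold only a part of this plan. AIM2 is the best understood. It senses DNA in the cytosol, recruits the adaptor ASC and activates caspase-1 in a complex called the inflammasome, which releases interleukin-1β and interleukin-18. Ifi204 encodes p204, described as a mouse counterpart of human IFI16, which has been linked to DNA sensing through STING. STING is the adaptor that passes on the signal of cyclic dinucleotides made when DNA is found in the cytosol, and it turns on interferon-β through TBK1 and IRF3. DMXAA binds mouse STING itself and switches it on without DNA. Many genes of the cluster are known as targets of interferon.

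Library totals ran between 15624020 and 19601850 counts. Sting1, the gene named in the genotype, had 35 and 27 counts in DMXAA and 48 and 19 counts in DMSO libraries labelled knockout, against 23 and 39 counts in WT DMXAA and 39 and 41 counts in WT DMSO libraries. Its difference between the labels was a log2 fold change of 0.03 (SE 0.47, adjusted p = 0.984, edgeR) under DMSO, so the counts did not go with the label and the libraries are called KO-labelled below. Interferon-β mRNA (Ifnb1) was counted 3 and 0 times in KO-labelled DMXAA, 1 and 0 times in KO-labelled DMSO, 536 and 261 times in WT DMXAA, and 0 times in both WT DMSO libraries. Summed beta cell markers lay between 163118 and 323572 CPM (counts per scaled library total) in every library, as the tissue label says.

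On mm10 the 10 genes lay within 591.794 kb of chromosome 1, with 3 on the plus strand and 7 on the minus strand. Aim2 (173350879 to 173466040) stood at one end and Ifi203 (173920407 to 173942672) at the other. Between them lay Ifi214 (173519717 to 173535957), Ifi213 (173566283 to 173599274), Ifi209 (173630917 to 173647928), Ifi208 (173673675 to 173698395), Ifi207 (173723427 to 173741747), Ifi204 (173747293 to 173766943), Mndal (173849126 to 173942491) and Ifi211 (173896345 to 173913046). These are GENCODE M21 gene spans. The span of Mndal ran over those of Ifi211 and Ifi203, but its exons overlapped those of Ifi203 in 37 bases only, which is 0.552% of the exon bases of Ifi203. The release listed 22 genes between 173333258 and 174031810, a wider interval that runs past both outer genes. The 12 that were not among the 10 comprised 4 protein-coding genes (Cadm3, Ifi206, Ifi202b and Ifi205), 6 pseudogenes and 2 miRNA genes.

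**Figure D1:**
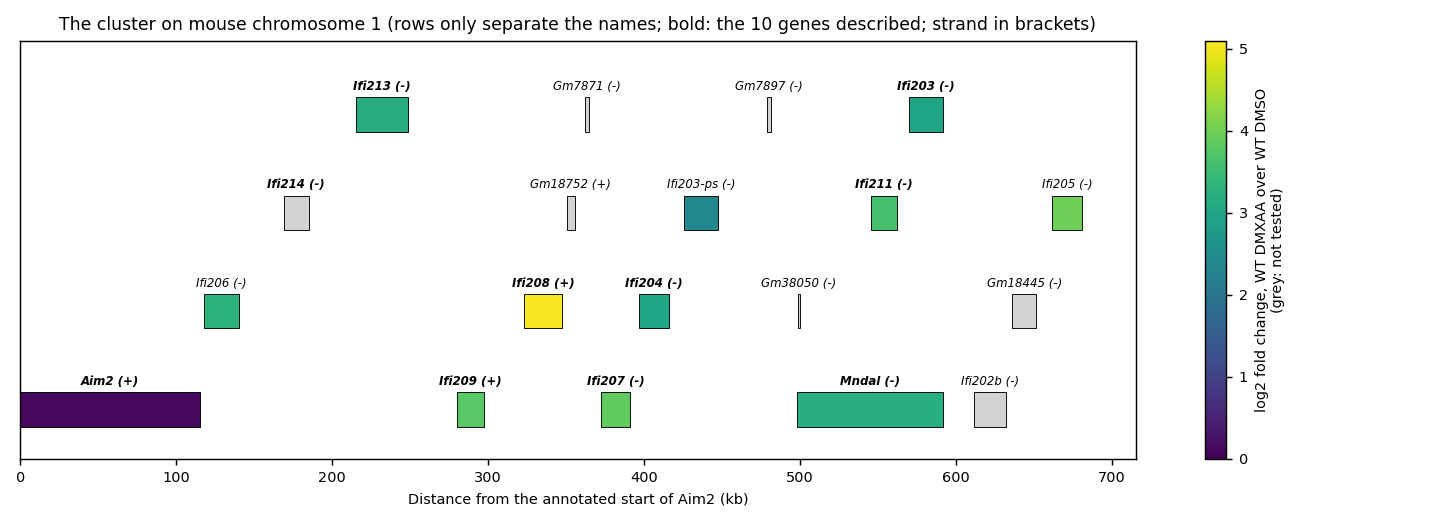
Map of the cluster, with distance from the annotated start of Aim2 in kilobases on the x axis. Boxes are gene spans drawn to scale in rows that only separate the names. Colour is the log2 fold change of WT DMXAA over WT DMSO libraries (grey, not tested). Of the 10 genes described, Aim2, at the left end, had 0.10 and the 8 other tested genes had between 2.99 and 5.05. Outside the 10, Ifi206 had 3.28, Ifi205 had 3.97 and Ifi203-ps had 2.38. Cadm3 and the 2 miRNA genes are not drawn.

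Promoter sequences are shown because 7 of the 9 genes with a window carried the same interferon-related motif just before a start site. RefSeq windows (GRCm38.p6, 250 bases before to 50 bases after the start) were given for 9 of the 10 genes, all but Ifi204, in 11 windows. The letters GAAA NN GAAA, where N is any base, the core of the interferon-stimulated response element bound by IRF and ISGF3 factors, were searched on both strands. They were found in 7 of the 9 genes, the exceptions being Aim2 and Ifi209, against 3.99% of 27025 genes with such windows. The longer word GAAATCGAAA, 1 form of that core, was in 6 of the 9 genes and in 16 of the 27025 genes (0.0592%), and the shorter AAATCGAAA inside it was in 7 of the 9 and in 38 of the 27025 (0.141%). These totals over the 27025 genes include the genes of the cluster themselves, and Ifi206, a neighbour outside the 10, holds both words. Several of the windows are near copies of each other, as given below, so the matches are not separate occurrences. Both words were chosen after the windows had been read. The letters TTCNNNGAA, the gamma-activated sequence, were in 0 of the 9 genes and in 9.55% of the 27025. Below, each stretch reads 5′ to 3′ on the gene's own strand, and capitals mark the match to this core or, in Ifi209, the AAATCGAAA word.
Ifi203, chr1:173942503-173942542, minus strand: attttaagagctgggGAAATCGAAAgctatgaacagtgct
Mndal, chr1:173880199-173880238, minus strand: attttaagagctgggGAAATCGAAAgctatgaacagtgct
Ifi207, chr1:173741826-173741865, minus strand: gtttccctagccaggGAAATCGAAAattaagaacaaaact
Ifi211, chr1:173913059-173913098, minus strand: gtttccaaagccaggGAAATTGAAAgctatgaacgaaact
Ifi208, chr1:173673592-173673631, plus strand: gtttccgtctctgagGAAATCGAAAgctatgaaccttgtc
Ifi213, chr1:173599321-173599360, minus strand: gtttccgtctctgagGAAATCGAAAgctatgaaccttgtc
Ifi214, chr1:173536012-173536051, minus strand: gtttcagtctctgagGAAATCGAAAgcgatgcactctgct
Ifi209, chr1:173630766-173630804, plus strand: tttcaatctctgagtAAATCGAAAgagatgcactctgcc

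The marked letters began between 35 and 79 bases before the start site. The stretches of Ifi203 and Mndal were the same in 40 of 40 positions, and so were those of Ifi208 and Ifi213. Ifi207 and Ifi211 matched each other in 33 of 40 positions, as did Ifi208 and Ifi214. Ifi203 and Ifi207 matched in 27 of 40. Ifi209 lacked the G before the AAATCGAAA word, so its window held no match to the core. The windows of Ifi207 and Aim2 are given whole, as the gene with the highest level under DMXAA and the gene that did not pass the test. That of Aim2 held neither motif and neither word. It lies inside the M21 span of Aim2, which begins at 173350879, so the sequence before that annotated start was not searched. The windows of Mndal, whose M21 span begins at 173942491 on the minus strand, likewise lie inside its span.
Ifi207, chr1:173741760-173742059, minus strand: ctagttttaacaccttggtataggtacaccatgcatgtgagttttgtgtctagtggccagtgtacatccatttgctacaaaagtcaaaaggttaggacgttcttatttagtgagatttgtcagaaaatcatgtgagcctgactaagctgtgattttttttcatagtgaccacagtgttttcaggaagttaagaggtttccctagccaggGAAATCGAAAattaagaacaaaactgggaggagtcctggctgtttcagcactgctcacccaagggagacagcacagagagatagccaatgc
Aim2, chr1:173420354-173420653, plus strand: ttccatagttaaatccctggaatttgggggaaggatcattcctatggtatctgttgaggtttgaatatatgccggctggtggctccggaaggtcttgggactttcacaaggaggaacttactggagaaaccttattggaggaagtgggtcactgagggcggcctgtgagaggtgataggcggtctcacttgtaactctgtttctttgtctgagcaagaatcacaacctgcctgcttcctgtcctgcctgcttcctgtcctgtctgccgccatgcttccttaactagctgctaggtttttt

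The genes also resemble each other inside their transcripts, which bears on how far a read can be assigned to 1 of them. Of the 150-base windows of Ifi211 transcripts, 46.4% were found letter for letter in another gene, 32.3% in Ifi205 and 14.1% in Ifi204. The share was 9.28% for Ifi209, which had its windows in common with Ifi214, and 6.77% for Ifi204, in common with Ifi211. It was 3.99% for Ifi214, 1.61% for Mndal, 1.50% for Ifi208, 0.827% for Ifi203, 0.223% for Ifi213, and 0% for Ifi207 and Aim2. The longest run in common between any pair of the 10 was 330 bases, between Ifi209 and Ifi214, and the next was 306 bases, between Ifi204 and Ifi211. How the authors' counting treated such reads, and whether it used strand, is not given in the sources used here. The counts of Ifi211, Ifi209, Ifi204 and Ifi214 are the least certain. Ifi207 and Aim2 had no exact 150-base window in common with another gene. At 75 bases the share was 2.80% for Ifi207 and 0% for Aim2. Reads that fit another gene with mismatches were not examined.

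**Figure D2:**
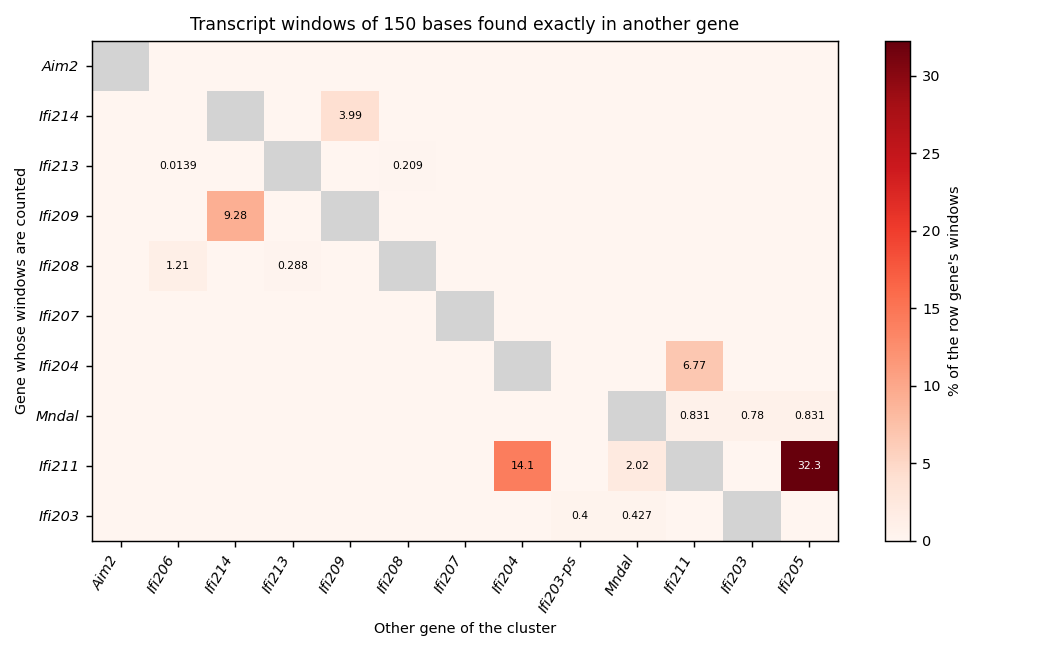
Share of the 150-base transcript windows of each gene (rows) that occur letter for letter in each other gene of the cluster (columns), as percent of the row gene's windows. Empty cells are 0, grey cells are the gene itself, and the darkest cell is Ifi211 with Ifi205 at 32.3%.

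In WT islets, 8 genes of the cluster rose within 3 h of DMXAA and Aim2 did not pass the test. Of the 10 genes, 9 passed the filter on low counts (17055 genes in all), and Ifi214 did not. Of the 9, 8 were higher at an adjusted p under 0.05 in edgeR's quasi-likelihood test, against 1.11% of all genes tested, and none was lower (0.375% of all genes tested). Both WT DMXAA libraries lay above both WT DMSO libraries in 8 of the 9 genes, against 22.5% of all genes tested. In 8 of the 9 they also lay above all 6 other libraries, against 7.17%. These are the 8 genes called higher, so this separation is not evidence apart from the call. The median log2 fold change of the 9 was 3.20, and that of all genes tested was -0.00. Each of the 8 calls stood when any 1 of the 8 libraries was left out, with adjusted p at most 0.00850. In bulk RNA more cells that express a gene cannot be told apart from more RNA per cell.

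Ifi207 had the highest level of the cluster under DMXAA. Its level was 53.3 and 56.3 CPM in WT DMXAA libraries, against 4.42 and 3.15 CPM in WT DMSO libraries. The groups were far apart, with a log2 fold change of 3.86 (SE 0.27, adjusted p = 2.21e-06, edgeR). Ifi203 had 33.3 and 41.7 CPM in WT DMXAA, against 4.997 and 4.48 CPM in WT DMSO libraries, a log2 fold change of 2.99 (SE 0.30, adjusted p = 5.08e-05, edgeR). Its groups did not overlap. Mndal, named for its likeness to the human myeloid nuclear differentiation antigen MNDA, had 21.6 and 31.0 CPM in WT DMXAA, against 3.37 and 2.36 CPM in WT DMSO libraries, a log2 fold change of 3.20 (SE 0.29, adjusted p = 2.45e-05, edgeR). Ifi204, the gene of p204, had 22.4 and 26.7 CPM in WT DMXAA, against 3.89 and 2.21 CPM in WT DMSO libraries, a log2 fold change of 3.01 (SE 0.32, adjusted p = 8.99e-05, edgeR). The WT DMSO libraries differed in the same direction for all 4 genes, library 1 being the higher.

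The other 4 genes that rose had means of 1.15 CPM or less in WT DMSO libraries. Ifi208 had the largest rise of the cluster, with 9.58 and 11.1 CPM in WT DMXAA, against 0.421 and 0.197 CPM in WT DMSO libraries. The ratio of its means was 33.5 and its log2 fold change 5.05 (SE 0.40, adjusted p = 7.35e-06, edgeR). Ifi209 had 13.5 and 11.9 CPM in WT DMXAA, against 1.26 and 0.590 CPM in WT DMSO libraries, a log2 fold change of 3.78 (SE 0.36, adjusted p = 3.29e-05, edgeR). Ifi211 had 12.8 and 15.1 CPM in WT DMXAA, against 1.26 and 1.03 CPM in WT DMSO libraries, a log2 fold change of 3.60 (SE 0.30, adjusted p = 1.10e-05, edgeR). Ifi213 had 5.71 and 6.40 CPM in WT DMXAA, against 0.473 and 0.836 CPM in WT DMSO libraries, a log2 fold change of 3.18 (SE 0.38, adjusted p = 0.000292, edgeR). WT DMXAA and WT DMSO libraries did not overlap in any of these 4 genes.

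Aim2, the inflammasome sensor, was low throughout. It had 0.808 and 0.729 CPM in WT DMXAA libraries, between the 1.11 and 0.344 CPM of the WT DMSO libraries. The log2 fold change was 0.10 (SE 0.59, adjusted p = 0.962, edgeR), so an SE this wide leaves a modest change in either direction undetectable at this depth. Ifi214 had 6 and 6 counts in WT DMXAA, against 3 and 0 counts in WT DMSO libraries, which is too few to test.

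Per kilobase of exon, the order in WT DMXAA libraries was Ifi207 (16.01 CPM per kb), Ifi211 (7.82), Mndal (7.25), Ifi204 (6.90), Ifi203 (5.60), Ifi209 (3.59), Ifi208 (1.97), Ifi213 (0.885), Aim2 (0.219) and Ifi214 (0.039). Length here is that of the merged exons of all annotated transcripts of a gene, so the order depends on that choice. The place of Ifi211 rests on counts named above as among the least certain. Ifi207 stood clear of the next gene, with 15.6 to 16.4 CPM per kb in its 2 libraries. The libraries of Ifi211 (7.15 to 8.48), Mndal (5.97 to 8.53) and Ifi204 (6.29 to 7.51) overlapped, and those of Mndal and Ifi203 (4.97 to 6.22) did too. In WT DMSO libraries Ifi207 was again first at 1.11 CPM per kb, followed by Ifi204 (0.857), Mndal (0.789), Ifi203 (0.706) and Ifi211 (0.643), and each of the first 4 overlapped its neighbour in the order. Ifi209 (0.261) and Aim2 (0.207) came after these, ahead of Ifi213 (0.096), Ifi208 (0.059) and Ifi214 (0.010).

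A sum over the 10 genes does not depend on how reads were split among these 10. It can still depend on reads shared with genes outside the 10, such as Ifi205, in which 32.3% of Ifi211 windows were found. It can also depend on whether reads that fit several genes were counted at all. It was 18.6 and 10.6 CPM in KO-labelled DMXAA, 18.9 and 18.2 CPM in KO-labelled DMSO, 173 and 201 CPM in WT DMXAA, and 21.4 and 15.2 CPM in WT DMSO libraries. The WT DMXAA mean was 187 ± 19.8 CPM and the WT DMSO mean 18.3 ± 4.35 CPM (SD, n = 2 each), a ratio of 10.3. The KO-labelled means were 14.6 ± 5.66 CPM with DMXAA and 18.6 ± 0.453 CPM with DMSO (SD, n = 2 each), a ratio of 0.787. The make-up of the sum differed between WT groups. Ifi207 took 29.2% of it in WT DMXAA and 20.7% in WT DMSO, Ifi208 took 5.53% and 1.69%, Ifi203 took 20.0% and 25.9%, and Aim2 took 0.410% and 3.96%.

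**Figure D3:**
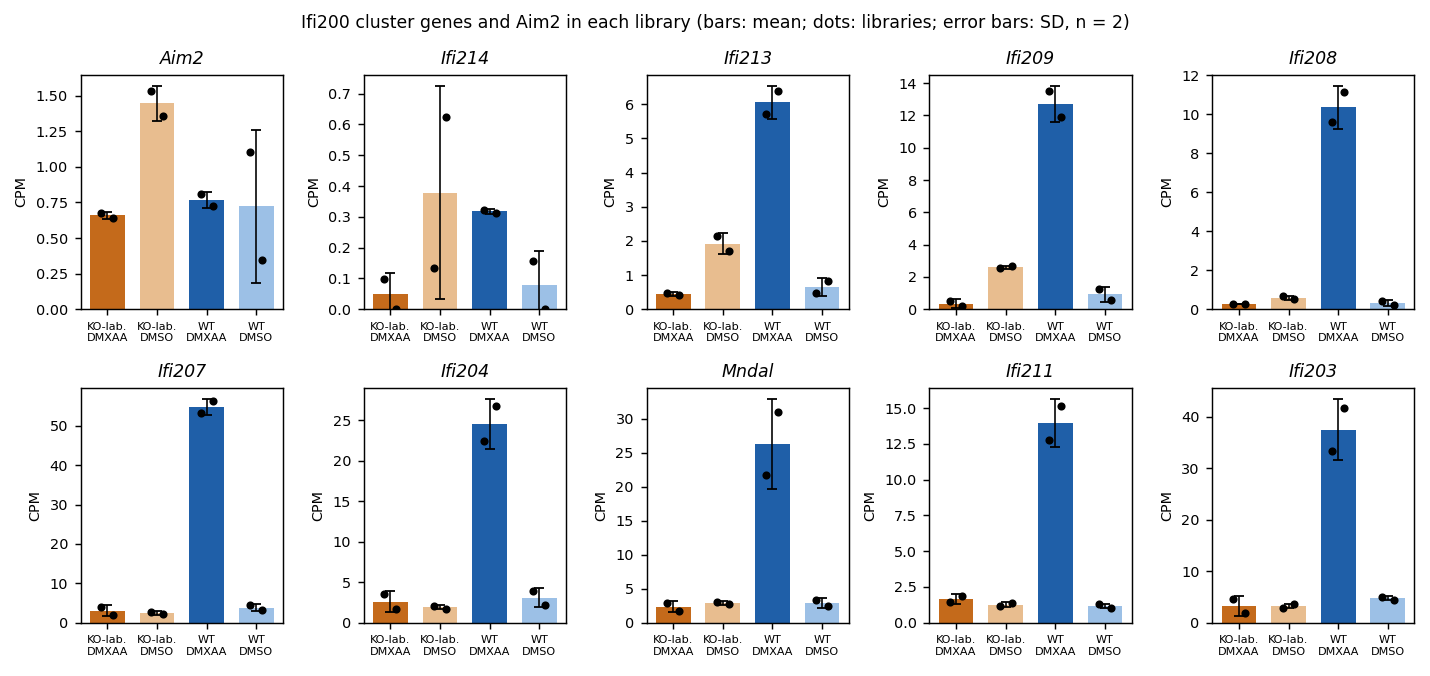
Level of each of the 10 genes in CPM (y axis, a separate linear scale from 0 in each panel) in the 4 groups, with bars for the mean, dots for libraries and error bars for the SD (n = 2). WT DMXAA libraries stand above every other library in 8 panels, the exceptions being Aim2 and Ifi214. In Aim2, Ifi213, Ifi209 and Ifi208 both KO-labelled DMXAA libraries lie below both KO-labelled DMSO libraries. In Ifi214, library 1 of both KO-labelled groups had 2 counts, so their order in that panel comes from scaling alone.

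In KO-labelled islets none of the 9 tested genes rose with DMXAA, and Ifi209 fell. Of the 9 genes, 0 were higher (0.164% of all genes tested) and 1 was lower (0.211% of all genes tested) in edgeR. At an unadjusted p under 0.05 there were 2, both lower, and DESeq2 called these 2, Ifi209 and Ifi213. Ifi209 had 0.533 and 0.176 CPM in KO-labelled DMXAA, against 2.53 and 2.66 CPM in KO-labelled DMSO libraries, which were 11 and 3 counts against 38 and 47 counts. Its log2 fold change was -2.79 (SE 0.52, adjusted p = 0.0400, edgeR). The call was lost on leaving out either KO-labelled DMXAA library (adjusted p = 0.0919 and 0.188), either KO-labelled DMSO library (0.231 and 0.434) or either WT DMXAA library (0.0667 and 0.0711). Ifi213 had 0.484 and 0.410 CPM in KO-labelled DMXAA, against 2.13 and 1.70 CPM in KO-labelled DMSO libraries, with a log2 fold change of -2.06 (SE 0.50, adjusted p = 0.121, edgeR; 0.0438 with DESeq2).

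Ifi208 and Aim2 were also below in both KO-labelled DMXAA libraries without passing the test. Aim2 had 0.678 and 0.644 CPM in KO-labelled DMXAA, against 1.53 and 1.36 CPM in KO-labelled DMSO libraries (log2 fold change -1.11, SE 0.55, adjusted p = 0.718, edgeR). Ifi208 had 0.291 and 0.293 CPM in KO-labelled DMXAA, against 0.667 and 0.510 CPM in KO-labelled DMSO libraries (log2 fold change -0.98, SE 0.68, adjusted p = 0.857, edgeR). With Ifi209 and Ifi213 these made 4 of 9 genes whose DMXAA libraries were both below the DMSO libraries, against 17.7% of all genes tested. Ifi211 was the 1 gene above in both, with 1.40 and 1.87 CPM in KO-labelled DMXAA, against 1.13 and 1.36 CPM in KO-labelled DMSO libraries, where 18.1% of all genes tested lay above.

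The remaining 4 genes had overlapping groups. Ifi207 had 4.07 and 1.99 CPM in KO-labelled DMXAA, against 2.73 and 2.15 CPM in KO-labelled DMSO libraries. Ifi203 had 4.60 and 1.81 CPM in KO-labelled DMXAA, against 2.87 and 3.51 CPM in KO-labelled DMSO libraries. In these, and in Ifi204 and Mndal, KO-labelled DMXAA library 1 was the higher of its pair. Ifi204 had 3.53 and 1.64 CPM in KO-labelled DMXAA, against 2.07 and 1.70 CPM in KO-labelled DMSO libraries. Mndal had 2.91 and 1.76 CPM in KO-labelled DMXAA, against 3.07 and 2.66 CPM in KO-labelled DMSO libraries. Log2 fold changes of the 4 lay between -0.27 and 0.49. Ifi214 had 2 and 0 counts in KO-labelled DMXAA, against 2 and 11 counts in KO-labelled DMSO libraries.

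**Figure D4:**
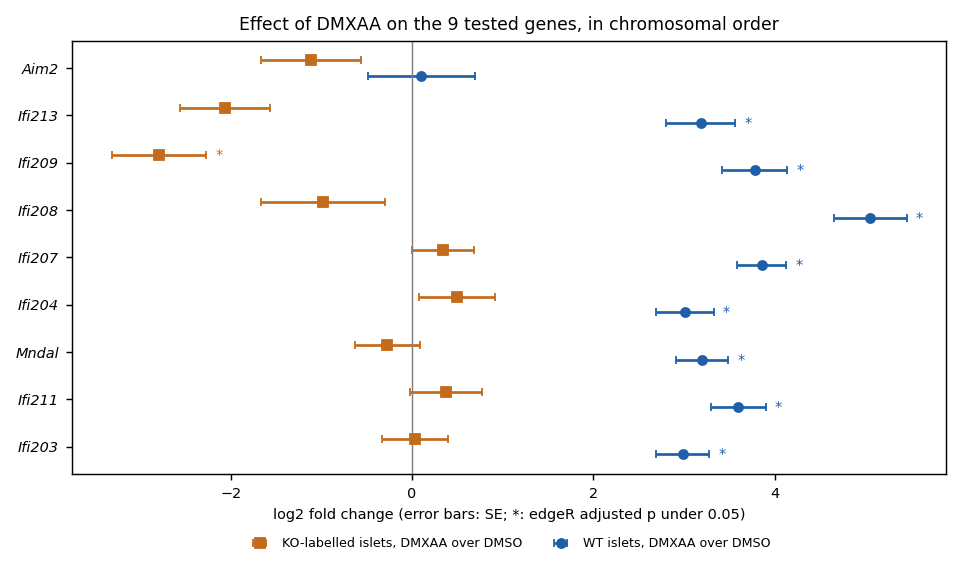
Log2 fold change of DMXAA over DMSO (x axis) for the 9 tested genes in chromosomal order, with squares for KO-labelled and circles for WT islets, error bars for the SE and a star for an adjusted p under 0.05 in edgeR. In WT islets 8 genes lie between 2.99 and 5.05 and Aim2 at 0.10, and in KO-labelled islets the 9 lie between -2.79 and 0.49.

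Whether the response differed between the labels was tested as an interaction, the KO-labelled effect minus the WT effect. It was negative for 8 of the 9 genes at an adjusted p under 0.05, against 0.528% of all genes tested. The difference was largest for Ifi209 (log2 -6.58, SE 0.62, adjusted p = 0.000116, edgeR), Ifi208 (log2 -6.04, SE 0.87, adjusted p = 0.00256) and Ifi213 (log2 -5.25, SE 0.63, adjusted p = 0.000687), which were the genes with the lowest KO-labelled fold changes beside Aim2. Ifi207 (-3.51), Mndal (-3.47), Ifi211 (-3.23), Ifi203 (-2.95) and Ifi204 (-2.52, SE 0.54, adjusted p = 0.0369) followed. The call for Ifi204 was lost in 6 of the 8 fits that left out 1 library, with adjusted p up to 0.251 without KO-labelled DMSO library 1. Without KO-labelled DMSO library 2, 5 calls were left, as Ifi211 (adjusted p = 0.0972), Ifi203 (0.0696) and Ifi204 (0.162) missed the threshold. For Aim2 the difference was -1.22 (SE 0.81, adjusted p = 0.717, edgeR).

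Set against WT under DMXAA, 8 of the 9 genes, that is each of them but Aim2, were lower in KO-labelled islets, against 1.37% of all genes tested. This comparison shares its libraries with the 2 treatment comparisons. Log2 fold changes ran from -5.12 for Ifi208 (SE 0.41, adjusted p = 7.56e-06, edgeR) to -3.10 for Ifi211, and Aim2 had -0.21 (SE 0.60, adjusted p = 0.919). All 8 calls stood without any 1 library.

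Under DMSO no gene of the cluster differed by label at an adjusted p under 0.05 in edgeR, where 0.223% of all genes tested did. DESeq2 also called 0, and at an unadjusted p under 0.05 there were 2, both higher in KO-labelled islets. Ifi209 had 2.53 and 2.66 CPM in KO-labelled DMSO, against 1.26 and 0.590 CPM in WT DMSO libraries (log2 fold change 1.50, SE 0.43, adjusted p = 0.216, edgeR). Ifi213 had 2.13 and 1.70 CPM in KO-labelled DMSO, against 0.473 and 0.836 CPM in WT DMSO libraries (log2 fold change 1.52, SE 0.46, adjusted p = 0.241, edgeR). Aim2 and Ifi208 had log2 fold changes of 1.01 and 0.92. In these 4 genes both KO-labelled DMSO libraries were above both WT DMSO libraries, against 24.3% of all genes tested. For Ifi203, Ifi204 and Ifi207 both were below, against 22.4% of all genes tested, with log2 fold changes of -0.56, -0.70 and -0.63.

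Markers of B cells, which are known to express many interferon-inducible genes, were lower in KO-labelled DMXAA than in KO-labelled DMSO libraries, as were Ifi209, Ifi213, Aim2 and Ifi208. The sparse Ifi214 had 2 and 0 counts against 2 and 11 counts in these libraries. The summed level of 10 B cell markers was 5.81 and 11.5 CPM in KO-labelled DMXAA, 96.6 and 81.1 CPM in KO-labelled DMSO, 3.45 and 6.66 CPM in WT DMXAA, and 28.0 and 4.13 CPM in WT DMSO libraries. In KO-labelled islets 7 of the 10 were lower with DMXAA in edgeR (median log2 fold change -4.90), against 0.211% of all genes tested. DESeq2 called 6 of the 10. Under DMSO 4 of the 10 were higher in KO-labelled than in WT islets in edgeR, where 0.223% of all genes tested differed in either direction. DESeq2 called 3 of the 10. Over all genes, most calls of both comparisons were lost without KO-labelled DMSO library 1. Of the 10 markers, 2 and 1 were at 0 in KO-labelled DMXAA, 0 and 0 in KO-labelled DMSO, 1 and 4 in WT DMXAA, and 0 and 2 in WT DMSO libraries. Pax5 was at 0 in KO-labelled DMXAA library 1, in WT DMXAA library 2 and in WT DMSO library 2, and Ms4a1 in the last 2 of these. WT DMSO library 1, with the higher B cell sum of its pair, also had the higher level of every gene of the cluster described here except Ifi213. This includes Ifi203, Ifi204, Ifi207, Ifi211 and Mndal, which were not lower in both KO-labelled DMXAA libraries. The part of these cells in the KO-labelled values was not tested.

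**Figure D5:**
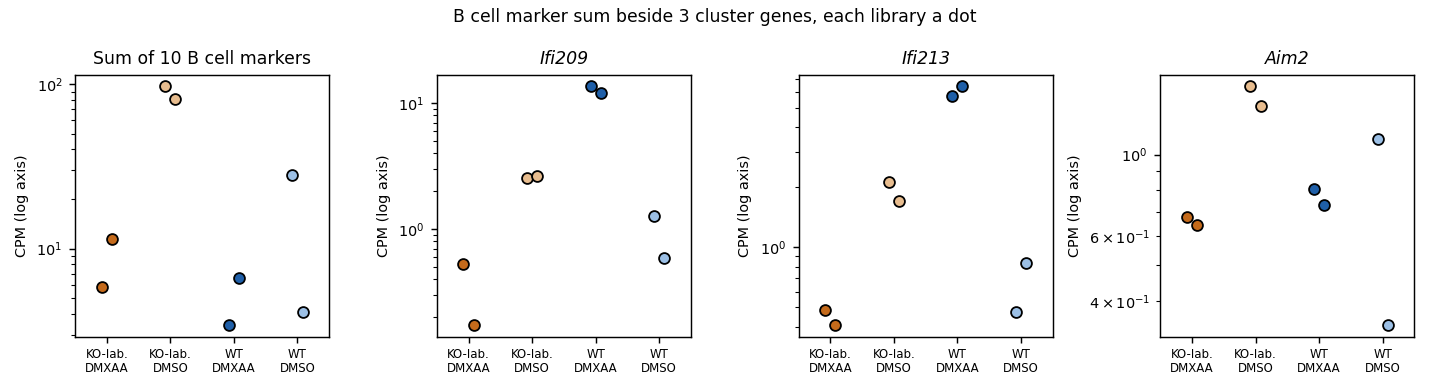
Summed level of 10 B cell markers beside Ifi209, Ifi213 and Aim2, in CPM on log axes, with 1 dot for each library in the 4 groups. KO-labelled DMSO libraries have the highest B cell sums, at 96.6 and 81.1 CPM, and Aim2 is also highest there, at 1.53 and 1.36 CPM. Ifi209 and Ifi213 are highest in WT DMXAA libraries, whose B cell sums are 3.45 and 6.66 CPM.

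Macrophages are known to express the cluster strongly, and their markers were not higher in WT DMXAA than in WT DMSO libraries. The summed level of 19 macrophage markers was 152 and 275 CPM in KO-labelled DMXAA, 165 and 163 CPM in KO-labelled DMSO, 113 and 112 CPM in WT DMXAA, and 180 and 124 CPM in WT DMSO libraries, with no marker at 0 in any library. In WT islets 0 of the 19 macrophage and 0 of the 10 B cell markers were called in edgeR, where 5 and 3 had an unadjusted p under 0.05, and DESeq2 called 0 of either. T and NK cell markers (10, of which 3 were tested) summed to 9.20 and 7.30 CPM in KO-labelled DMSO libraries and to between 1.33 and 3.80 CPM in the 6 others. Endothelial markers (14) summed to 1461 and 1336 CPM in KO-labelled DMXAA and 882 and 801 CPM in KO-labelled DMSO libraries. Their sums were 741 and 767 CPM in WT DMXAA and 930 and 1184 CPM in WT DMSO libraries. With DMXAA 2 of them were higher in KO-labelled islets (0.164% of all genes tested) and 3 lower in WT islets (0.375%). Acinar markers (14) summed to 432 and 376 CPM in KO-labelled DMXAA, 1638 and 2416 CPM in KO-labelled DMSO, 1627 and 3036 CPM in WT DMXAA, and 7085 and 1432 CPM in WT DMSO libraries. Between labels under DMXAA, 2 macrophage and 9 endothelial markers were higher in KO-labelled islets, against 174 of all 17055 genes tested. Of the B cell markers 0 were called (1 at an unadjusted p under 0.05 and 1 by DESeq2). The part of macrophages and of T and NK, endothelial and acinar cells in the values of the cluster was not tested.

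Among the cluster's genes outside the 10, 3 with a similar name were tested and rose in WT islets. Ifi206 had 7.11 and 8.79 CPM in WT DMXAA, against 0.789 and 0.836 CPM in WT DMSO libraries (log2 fold change 3.28, adjusted p = 8.99e-05, edgeR). Its promoter stretch matched that of Ifi208 in 39 of 40 positions. Ifi205 had 8.13 and 11.2 CPM in WT DMXAA, against 1.05 and 0.197 CPM in WT DMSO libraries (log2 fold change 3.97, SE 0.46, adjusted p = 0.000256, edgeR), and it shares transcript sequence with Ifi211. The pseudogene Ifi203-ps had 3.34 and 5.67 CPM in WT DMXAA, against 0.894 and 0.836 CPM in WT DMSO libraries (log2 fold change 2.38, adjusted p = 0.00541, edgeR), a call lost without WT DMSO library 1 (adjusted p = 0.0637) or WT DMXAA library 2 (0.114). Ifi202b had 4 counts in WT DMXAA library 2 and 0 in every other library. These genes were chosen with the cluster's results known and do not stand as independent evidence of its direction.

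A list called the inflammasome arm, which holds Casp1 and also genes not specific to AIM2, was then read in the same fit. Of 12 tested genes of the inflammasome arm, 1 rose in WT islets, against 1.11% of all genes tested. None fell, and the median log2 fold change was 0.06. Casp4, which encodes the mouse caspase-11 that senses cytosolic lipopolysaccharide, had 5.44 and 5.78 CPM in WT DMXAA, against 1.53 and 1.82 CPM in WT DMSO libraries (log2 fold change 1.74, SE 0.33, adjusted p = 0.0136, edgeR). The call was lost without WT DMXAA library 1 (adjusted p = 0.0825), WT DMXAA library 2 (0.119) or WT DMSO library 1 (0.143). Nlrp3, another inflammasome sensor, had 3.45 and 0.833 CPM in WT DMXAA, against 0.684 and 0.541 CPM in WT DMSO libraries (log2 fold change 1.79, adjusted p = 0.309, edgeR), a value set by 1 library. Casp1, the protease that AIM2 activates, had 1.78 and 2.50 CPM in WT DMXAA, against 1.16 and 1.03 CPM in WT DMSO libraries (log2 fold change 0.97, adjusted p = 0.389, edgeR). Ripk1, a kinase of cell death and inflammation signalling, had 30.3 and 35.3 CPM in WT DMXAA, against 43.9 and 37.6 CPM in WT DMSO libraries (log2 fold change -0.31, adjusted p = 0.445, edgeR). In KO-labelled islets 0 of the 12 were called in edgeR, 0 had an unadjusted p under 0.05, and DESeq2 called 0.

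Of 22 tested genes of DNA sensing upstream and downstream of STING, 3 rose in WT islets, against 1.11% of all genes tested. None fell, and the median log2 fold change was 0.16. Samhd1, a nucleotide hydrolase that restricts viruses, had 52.7 and 57.7 CPM in WT DMXAA, against 30.4 and 33.8 CPM in WT DMSO libraries (log2 fold change 0.78, adjusted p = 0.0186, edgeR). Trim56, a ubiquitin ligase, had a log2 fold change of 0.80 (adjusted p = 0.0229) and Ifi35 of 0.97 (adjusted p = 0.0295). Each of the 3 calls was lost in 3 to 5 of the 8 fits that left out 1 library, with adjusted p up to 0.241 for Samhd1, 0.204 for Trim56 and 0.318 for Ifi35. Zbp1, a sensor of nucleic acids in the Z form, had 8.94 and 19.3 CPM in WT DMXAA, against 3.52 and 2.21 CPM in WT DMSO libraries (log2 fold change 2.30, adjusted p = 0.0842, edgeR).

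The genes that relay the interferon signal and a panel of interferon-stimulated genes were read in the same way, where 1.11% of all genes tested rose in WT islets. Of 14 tested relay genes, 8 rose in WT islets, among them Irf1 (log2 fold change 1.79, adjusted p = 2.47e-05, edgeR) and Irf7 (1.53, adjusted p = 0.00128), which encode transcription factors, and the feedback inhibitor Socs1 (2.99, adjusted p = 0.000788). Of 15 tested interferon-stimulated genes 14 rose, and the median log2 fold change of the list was 4.23. The largest of the 4 named by the smallest p was Ifit2 (7.10), followed by Ifit3 (5.46), Oasl1 (5.28) and Ifit1 (5.15). Cxcl10, a chemokine, had 574 and 521 CPM in WT DMXAA, against 7.78 and 2.95 CPM in WT DMSO libraries. In KO-labelled islets 0 of the 22 DNA-sensing, 0 of the 14 relay and 0 of the 15 interferon-stimulated genes were called in edgeR, where 2, 3 and 1 had an unadjusted p under 0.05, and DESeq2 called 0 in each list.

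The pattern of each tested gene over the 8 libraries was compared with that of 12763 other genes by the root mean square distance of centred log2 CPM, as a description. The genes nearest to Ifi203, Ifi204 and Mndal included Gbp9 and Gbp3, which encode guanylate-binding proteins, at distances between 0.239 and 0.341. Tgtp1, an interferon-inducible GTPase gene, was nearest to Ifi204 (0.214) and to Ifi207 (0.269), and Mx1 was next to Ifi207 (0.278). Neurl3 was nearest to Ifi208 (0.199), Cxcl1 to Ifi211 (0.244) and Ifit1bl1 to Ifi213 (0.250). Ifi209 had no close match, with Gbp4 nearest at 0.503 and Ifi206, of the same cluster, next at 0.511. Aim2 was nearest to Ak4 (0.120), Lax1 (0.138) and Diras2 (0.146), whose WT log2 fold changes were 0.03, 0.02 and 0.25. Nearness is measured over 4 groups of 2 libraries only. An offset of 0.5 CPM was added before taking logs, which shrinks differences in genes at low levels. Tgtp1, with a mean of 0.649 CPM in WT DMSO libraries, had a WT log2 fold change of 3.99, against 3.01 for Ifi204.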

How the data were processed

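Raw counts per gene were deposited by the authors for 8 libraries of mouse islets, 2 in each of 4 groups set by the genotype and agent in the labels. Per the submitters' processing notes, HISAT2, HTSeq and mm10 were used, with no version recorded. The sources used here give neither annotation release nor strand setting. The 2 libraries of a group differed by more than sampling noise (chi-square per degree of freedom 6.83 to 53.8), so none was a copy. Symbols and positions came from GENCODE M21 (54495 of 54532 identifiers).

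Counts were analysed with edgeR 4.0.16 in R 4.3.3: filterByExpr by group (17055 genes kept), TMM scaling, 1 coefficient per group, quasi-likelihood F-test (legacy=FALSE, robust; 4 residual degrees of freedom) and Benjamini-Hochberg adjustment over all genes tested, with a threshold of 0.05. The biological coefficient of variation was 17.1%. SE was taken as the size of the log2 fold change over the root of F. CPM used TMM-scaled totals. DESeq2 1.42.0, RLE scaling, no filter, the older form of the fit, a replicate block and leaving out each library were alternatives. The script was tested on simulated data. Patterns were compared on log2(CPM + 0.5), centred, for genes with a mean of at least 1 CPM.

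The 10 genes, the gene and marker lists, and the rule for named genes (all 10, up to 4 genes of each list with the smallest p in the WT comparison, the 3 nearest genes in pattern, and Sting1, Ifnb1 and Cxcl10) were chosen with earlier results of these data known. Mnda, Pydc3, Pydc4 and Pyhin1, on the list of neighbours, are not separate genes in M21. Same-numbered libraries did not deviate together (correlations of deviations -0.12 to 0.11), and the fit has no block.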

Additional observations from a re-analysis of the deposited data

Results flagged for a closer look

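For 8 genes of the cluster the effect of DMXAA differed between KO-labelled and WT islets by a test of the difference itself, the interaction term in edgeR (adjusted p under 0.05, which 0.528% of all genes tested met with a lower effect). The differences, KO-labelled minus WT on the log2 scale, were -6.58 for Ifi209, -6.04 for Ifi208, -5.25 for Ifi213, -3.51 for Ifi207, -3.47 for Mndal, -3.23 for Ifi211, -2.95 for Ifi203 and -2.52 for Ifi204. The first 3 include negative KO-labelled fold changes (-2.79, -0.98 and -2.06), of which only that of Ifi209 was called in edgeR. Their KO-labelled DMXAA libraries held few counts: 11 and 3 for Ifi209, 6 and 5 for Ifi208, and 10 and 7 for Ifi213. The call for Ifi204 was lost in 6 of the 8 fits that left out 1 library (adjusted p up to 0.251), and 5 calls were left without KO-labelled DMSO library 2.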

How the results depend on the processing

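Across 13 alternatives and 5 comparisons of 9 genes, 559 log2 fold changes kept their direction and their side of the threshold, 14 lost a call, 1 gained one and 11 changed sign, none of the last with a call; the causes were not tested. With 1 library left out, Aim2 in WT islets ranged from -0.52 (without WT DMSO library 2) to 1.15. In KO-labelled islets Ifi203 ranged from -0.84 (without DMXAA library 1; -0.10 without DMSO library 1) to 0.52, Ifi204 from -0.21 to 0.91, Ifi207 from -0.30 to 0.74 and Mndal from -0.72 to 0.026 (without DMXAA library 2). Between labels under DMSO, Ifi211 ranged from -0.033 (-0.01 without KO-labelled DMSO library 2) to 0.26, and Mndal from -0.26 to 0.26 (0.10 without KO-labelled DMSO library 2). Called genes of the cluster ranged from 0 to 1 in KO-labelled islets and from 5 to 8 in the interaction, and stayed at 8, 8 and 0 in the other 3 comparisons. DESeq2 called 2 in KO-labelled islets.

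Over all genes, leaving out 1 library moved the 253 calls in WT islets to between 154 and 958, the 64 in KO-labelled islets to between 2 and 113, the 204 interactions to between 92 and 266, the 407 between labels under DMXAA to between 205 and 746 and the 38 under DMSO to between 1 and 216. DESeq2 called 154, 312, 616 and 155 in the last 4 of these. The older form of the fit called 29 and no filter 177 in KO-labelled islets, and 17 and 159 between labels under DMSO. With a replicate block the 5 counts were 259, 61, 217, 417 and 56, no call of a gene of the cluster changed, and Mndal under DMSO turned to 0.0029; the numbers did not pair the libraries.

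The KO-labelled DMSO mean of the summed level was 17.8 CPM with plain library totals. The median share of transcript windows in common with another gene was 10.5% at 75 bases and 0% at 300 bases. Depth limits Aim2, Ifi208, Ifi209 and Ifi213 outside WT DMXAA and Ifi214 throughout.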
